A study of Mus musculus with 4 samples.

Results

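The 7 genes described here encode precursors of retinal neuropeptides: Vip, Npy, Sst, Tac1, Cck, Penk and Crh. They are 7 of the 32285 genes in the count matrices and were selected on their measured counts in these libraries, that is, positive cells, counts in the richest cells and host class in NLGF against WT. Those values are therefore given as a description, and no p-value or threshold call is given for any of the 7. The data are single-cell transcriptomes of dissociated mouse retina at 30 days of age from 2 NLGF and 2 wild-type (WT) mice. Each genotype was sampled in 1 female and 1 male, by 1 retina each. In NLGF mice the App gene, which encodes the amyloid precursor protein, holds a humanised and mutated amyloid beta sequence by knock-in, so the allele is under the gene's own promoter. WT mice carry the unedited gene. Each retina is 1 library, and the spread between libraries holds animal and preparation differences together.

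Neuropeptides are cut from larger precursors, stored in dense-core vesicles and released alongside a fast transmitter. In the retina they are known above all from amacrine cells, the inhibitory interneurons of the inner retina, where each peptide marks a small number of cell types. Most of these types are sparse, wide-field and GABAergic, that is, they use the inhibitory transmitter GABA and hold the enzymes Gad1 and Gad2. Glycinergic amacrine cells take up glycine through Slc6a9 instead.

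The libraries held 8060 barcodes (NLGF female), 9005 (NLGF male), 9058 (WT female) and 9068 (WT male), with 19128388, 22416382, 20842178 and 23473093 unique molecular identifiers (UMIs, counted transcripts) in that order. After filtering, 7155 and 7964 NLGF cells and 8092 and 8118 WT cells were kept. Clusters read as amacrine cells from their markers numbered 122 and 178 cells in the NLGF female and male, against 178 and 116 in the WT female and male. Median UMIs per amacrine cell were 12423.5 and 12364.5 in NLGF and 10698 and 10735 in WT. Of 19 amacrine sub-clusters, 3 were led by bipolar, Müller glial or rod genes. A cluster of 585 cells with a median of 1131 UMIs mixed horizontal-cell, ganglion-cell and amacrine markers and was left unnamed. It is called the mixed cluster below. The general amacrine marker Tfap2b was found in 23.1% of its cells, Gad1 in 8.03% and Gad2 in 4.44%. The ganglion-cell genes Slc17a6 and Rbpms were found in 15.2% and 7.01%, and the horizontal-cell gene Onecut1 in 10.9%. Any amacrine cells in the mixed cluster are not counted in the amacrine class. A cell with 5 or more UMIs of a gene is called rich in it. Across the libraries, 132 barcode sequences occurred more than once.

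All 7 genes were carried by few cells. Of the 31329 kept cells, 273 were rich in any of them and 6 were rich in 2 or more. Among 594 amacrine cells, 62 were rich in any of the 7. Rods, which should lack these transcripts, gave the level of free RNA: of 25147 rods with a median of 889 UMIs, 113 held a Cck UMI (0.449%), 22 an Npy UMI (0.0875%), 21 a Tac1 UMI (0.0835%), 11 a Vip UMI (0.0437%), 3 a Penk UMI (0.0119%), 2 an Sst UMI (0.00795%) and 1 a Crh UMI (0.00398%). No rod held more than 2 UMIs of any of the 7, so a rich cell lies above that level. Cells of a library are not replicates, and the 2 libraries per genotype allow a two-sided permutation p of 0.333 at the smallest.

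**Figure D1:**
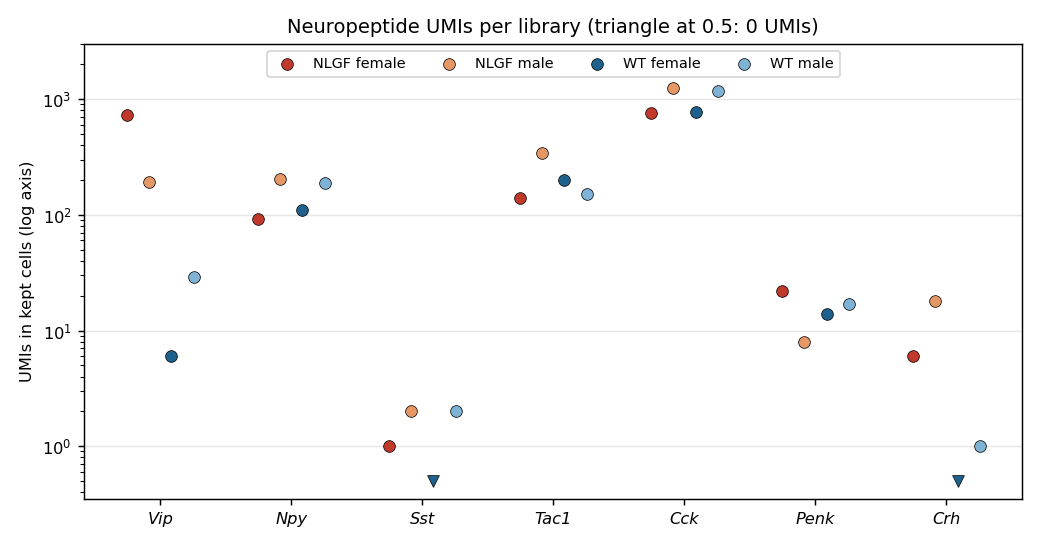
UMIs of each of the 7 genes in the kept cells of each library on a log axis, with NLGF libraries left of WT libraries and triangles for 0 UMIs. Vip and Crh are the genes for which both NLGF points lie above both WT points.

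Vip (ENSMUSG00000019772, GRCm38 chromosome 10, 5639218 to 5647617, plus strand) encodes vasoactive intestinal peptide, which acts on the receptors Vipr1 and Vipr2 and raises cyclic AMP in target cells. NLGF retina held 736 Vip UMIs in the female and 191 in the male, against 6 in WT female and 29 in WT male retina. Both NLGF libraries were above both WT libraries. Over all cells this was also so for 21.8% of the 16153 genes tested, and nothing is read from it because Vip was chosen with this contrast known. Vip-positive cells numbered 15 and 5 (NLGF female and male), against 3 and 8 (WT female and male). The numbers of positive cells overlapped between genotypes. The single richest cell held 342 and 168 UMIs (NLGF female and male), against 4 and 22 (WT female and male). Nothing is read from that order either, since counts in the richest cells were part of the selection. Tac1 and Crh showed the same order, and the share of all genes that do was not computed.

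The NLGF female had 3 Vip-rich cells, with 342, 294 and 86 UMIs, and the NLGF male had 2, with 168 and 18 UMIs. The WT female had no rich cell and a highest count of 4 UMIs, and the WT male had 1 rich cell with 22 UMIs, above the second cell of the NLGF male. Rich cells thus held 98.1% and 97.4% of the Vip UMIs of the NLGF female and male. All 5 NLGF rich cells were amacrine cells with 14057 to 27536 UMIs in total. All held Gad1 and Gad2 UMIs, markers of GABAergic amacrine cells, and UMIs of the general amacrine marker Tfap2b. Of all 594 amacrine cells, 200 held Gad1, 305 Gad2 and 331 Tfap2b. In the NLGF female, 1 of the Vip-rich cells also held 2 or more UMIs of the glycine transporter Slc6a9. Of these 5, 3 also held Cartpt, the precursor of another peptide, with 95, 67 and 49 UMIs.

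The best WT Vip cells were shallow and fell in the mixed cluster. The WT male cell had 22 Vip UMIs among 2088 UMIs, with 1 Gad1 UMI, and its own markers read as amacrine. The WT female cell had 4 Vip UMIs among 549 UMIs, with 32 Cartpt UMIs and 16.8% mitochondrial UMIs. As a share of the cell's own RNA the WT cells were not lower. They had 10536 and 7286 Vip UMIs per 1000000 UMIs of the cell in the WT male and female, whereas 4 of the NLGF rich cells lay between 6118 and 15064 and the fifth had 677.

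**Figure D2:**
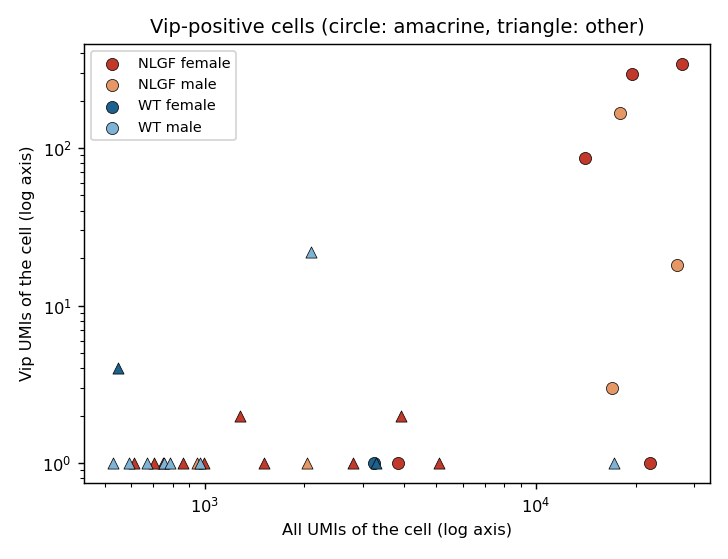
Vip UMIs of each Vip-positive cell against all UMIs of that cell, both on log axes, with amacrine cells as circles and other cells as triangles. The NLGF cells with 86 to 342 Vip UMIs have 14057 to 27536 UMIs in all, whereas the WT cells with 22 and 4 Vip UMIs have 2088 and 549.

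Within the amacrine class, Vip had 724 and 189 UMIs in the NLGF female and male, against 1 and 0 UMIs in the WT female and male. Summed over libraries the class held 913 Vip UMIs in NLGF and 1 in WT, too few in WT for a ratio. The WT cells with 22 and 4 Vip UMIs lay in the mixed cluster and are not in this sum. Over all kept cells Vip had 927 UMIs in NLGF and 35 in WT, a ratio of 28.3 per UMI sequenced (20.2 to 40.9). That exact interval covers counting error only and treats the UMIs of a few cells as separate counts. In the amacrine class both NLGF libraries lay above both WT libraries, as for 16.3% of the genes tested. In the edgeR fit of this class Vip had 272 ± 260 CPM (counts per 1000000 UMIs, TMM-scaled) in NLGF. WT had 0.247 ± 0.349 CPM (SD, n = 2 each). The log2 fold change was 9.51 ± 1.14 (SE), which measures no fold size with WT at 1 and 0 UMIs. In that fit 0.0268% of 11200 genes passed an adjusted p of 0.05. Over all cells Vip had a log2 fold change of 4.83 ± 0.88 (SE), in a fit where 0.031% of genes passed. A summed count cannot tell fewer Vip cells from less Vip per cell.

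The difference rested on single cells. Without the richest cell for each of the 7 genes in each library, amacrine Vip UMIs were 382 and 3 in the NLGF female and male and 1 and 0 in the WT female and male, and the gene fell under the filter on low counts. Vip-rich cells were 5 of 300 NLGF amacrine cells (1.67%, exact 95% interval 0.543 to 3.85) and 0 of 294 WT amacrine cells (exact 95% upper limit 1.25%; 3 counts in 294 cells would be 1.02%). These intervals pool the cells of 2 libraries per genotype and cover counting error only, so no difference between genotypes is read from them. By its own markers the rich WT male cell would be a further amacrine cell. With every amacrine cell thinned to 1000 UMIs, 4 and 1 NLGF cells and 0 and 0 WT cells kept a Vip UMI. Sub-clustering that left the 7 genes out put 97.4% of amacrine Vip UMIs in a sub-cluster led by Nr4a2, Cbln2, Cdkn1c, Cbln4 and Tac2. That sub-cluster was present in all libraries, with 11 and 8 cells in the NLGF female and male and 8 and 11 in the WT female and male. Its Vip UMIs were 722 and 168 in NLGF, from 3 cells in the female and 1 in the male, and 0 and 0 in WT. The remaining NLGF cells of the sub-cluster also held no Vip UMI. So few cells allow no comparison of genotypes within it.

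For Vip, Sst and Cck the 250 bases before the RefSeq start on GRCm38.p6 are shown on the gene's strand, since neuropeptide genes are known targets of cyclic AMP signalling through the element TGACGTCA and its shorter form TGACG. Capitals mark TGACG or its complement CGTCA, and the full element where it is present.
Vip, chr10:5638968-5639217, plus strand: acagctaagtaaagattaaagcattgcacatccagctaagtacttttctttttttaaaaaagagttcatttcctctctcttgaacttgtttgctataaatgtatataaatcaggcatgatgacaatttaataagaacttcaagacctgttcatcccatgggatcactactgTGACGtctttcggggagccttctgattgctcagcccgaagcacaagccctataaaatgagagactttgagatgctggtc
Sst, chr16:23890845-23891094, minus strand: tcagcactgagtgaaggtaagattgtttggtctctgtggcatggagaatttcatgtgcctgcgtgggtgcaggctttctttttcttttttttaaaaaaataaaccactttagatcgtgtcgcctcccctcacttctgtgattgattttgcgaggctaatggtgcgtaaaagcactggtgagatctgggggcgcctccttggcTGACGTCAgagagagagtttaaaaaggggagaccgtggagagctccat
Cck, chr9:121495695-121495944, minus strand: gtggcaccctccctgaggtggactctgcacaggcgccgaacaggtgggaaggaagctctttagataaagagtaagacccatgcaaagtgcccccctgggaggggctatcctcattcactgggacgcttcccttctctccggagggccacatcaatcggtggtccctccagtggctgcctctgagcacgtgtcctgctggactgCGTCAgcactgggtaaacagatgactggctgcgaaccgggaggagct
Of the 5 genes with a promoter in the RefSeq table (Vip, Npy, Sst, Tac1 and Cck), 4 held TGACG on either strand, which 17.8% of 32851 promoters of this length also hold. Npy was the one without it. The full element, which overlaps the shorter form, was in Sst alone among these 5 and in 1.55% of all promoters. Letters in a window are a description and do not show binding.

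Crh (ENSMUSG00000049796, GRCm38 chromosome 3, 19693401 to 19695396, minus strand) encodes corticotropin-releasing hormone, the peptide that drives the pituitary stress axis and that in mouse retina marks several sparse amacrine types. Crh had 6 and 18 UMIs in NLGF female and male retina, against 0 and 1 in WT female and male retina. Nearly all of it sat in 1 amacrine cell per NLGF library, with 6 UMIs in the female cell and 17 in the male cell. These 2 cells held Gad1 and Gad2 and lay in the Nr4a2 and Cbln2 sub-cluster. Both were also rich in Tac1, with 5 and 7 UMIs.

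The amacrine class held 23 Crh UMIs in NLGF and 0 in WT. All 23 came from the 2 rich cells, so neither a fold nor a lower limit of a fold is given. The filter on low counts left Crh out of the fits, so it has no fitted fold change. Crh-rich cells were 2 of 300 NLGF amacrine cells (0.667%), against 0 of 294 WT cells (exact 95% upper limit 1.25%, 1.02% by 3 counts). These shares pool the cells of 2 libraries per genotype, and the limit covers counting error only. With 2 Crh-rich cells in all, no difference between genotypes is read from them.

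Tac1 (ENSMUSG00000061762, GRCm38 chromosome 6, 7554879 to 7565834, plus strand) encodes the precursor of substance P and neurokinin A. NLGF retina held 141 Tac1 UMIs in the female and 345 in the male, against 202 in the WT female and 150 in the WT male, and the genotypes overlapped. Rich cells numbered 8 and 11 in the NLGF female and male and 9 and 8 in the WT female and male. Their highest counts were 51 and 157 UMIs in NLGF and 47 and 27 in WT. In amacrine cells Tac1 had 86.6 ± 25.5 CPM in NLGF and 83.8 ± 8.60 CPM in WT (SD, n = 2 each), a log2 fold change of 0.06 ± 0.18 (SE).

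Tac1 was found in distinct kinds of cell. Of its 36 rich cells, 26 were amacrine cells, and 24 of those held Gad1 or Gad2, beside 325 of all 594 amacrine cells. The sub-cluster led by Maf, Crybb3 and Id4 held 14 and 56 Tac1 UMIs in the NLGF female and male and 44 and 58 in the WT female and male. The Nr4a2 and Cbln2 sub-cluster held 56 and 164 in NLGF and 49 and 32 in WT. A sub-cluster led by Kctd12, Igfbp5 and Igfbp7 held 38 and 0 in NLGF and 89 and 11 in WT, in 5 cells that had 0 to 2 Gad1 and Gad2 UMIs each, at least 19 Calb2 UMIs and, in 4 of the cells, Rbpms. Calb2 encodes the calcium buffer calretinin, and Rbpms is best known as a ganglion-cell marker.

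The other 10 Tac1-rich cells lay in the mixed cluster, and all 10 held Slc17a6, the glutamate transporter of ganglion cells, and Rbpms. None held Gad1 or Gad2 UMIs, and each took the ganglion-cell name by its own markers. They numbered 3 and 5 in the NLGF female and male and 0 and 2 in the WT female and male. The mixed cluster as a whole held 117 and 114 cells in NLGF and 130 and 224 in WT. The highest Tac1 count among them was 58 UMIs, in an NLGF male cell with 55825 UMIs in all. The numbers of cells are too small for a comparison over libraries.

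Npy (ENSMUSG00000029819, GRCm38 chromosome 6, 49822710 to 49829507, plus strand) encodes neuropeptide Y, which acts on a family of receptors that lower cyclic AMP. NLGF retina held 92 Npy UMIs in the female and 206 in the male, against 111 in the WT female and 187 in the WT male. The genotypes overlapped, and within each genotype the male library was the higher. Rich cells numbered 4 and 6 in NLGF and 7 and 5 in WT (female and male). Amacrine cells had 39.6 ± 26.6 CPM in NLGF and 56.7 ± 36.9 CPM in WT (SD, n = 2 each), a log2 fold change of −0.37 ± 0.38 (SE).

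All 15 Npy-rich amacrine cells held Gad1 or Gad2, beside 325 of all 594 amacrine cells. Nos1, the neuronal nitric oxide synthase, was found in 7 of the Npy-rich cells, beside 15 of all 594. A sub-cluster led by Gm28578, Slitrk6, Opn1sw, Grp and Ptn held 11 of the Npy-rich amacrine cells. Its Npy UMIs were 32 and 30 in the NLGF female and male and 46 and 16 in the WT female and male, from 8 and 7 NLGF cells and 5 and 3 WT cells. The richest Npy cell of the NLGF male, with 95 UMIs, was also its second Vip cell, with 18 Vip UMIs. Npy and Cck were rich together in 2 WT cells, 1 in the female with 15 Npy and 34 Cck UMIs and 1 in the male with 33 Npy and 19 Cck UMIs. The female cell held 202 Calb2 UMIs and no Gad2.

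Müller glia, the radial glia of the retina, held Npy at low counts in many cells. Their Npy UMIs were 43 and 57 in the NLGF female and male, against 23 and 38 in the WT female and male. Positive cells were 26 of 408 and 30 of 374 in NLGF and 19 of 256 and 24 of 376 in WT, or 6.37%, 8.02%, 7.42% and 6.38%, against 0.0875% of rods. At 1000 UMIs per cell the shares were 1.87% and 2.40% in NLGF and 2.65% and 2.02% in WT, against 0.0479% in rods, so the gap to rods remained at equal depth. The 4 rich Müller cells, with 5 to 7 UMIs, were all from NLGF. The Müller fit gave 24.4 ± 4.97 CPM in NLGF and 18.6 ± 1.08 CPM in WT (SD, n = 2 each), a log2 fold change of 0.38 ± 0.25 (SE). In that fit 1% of 11103 genes passed the threshold. Both NLGF libraries lay above both WT libraries, as for 20.6% of the genes tested.

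A further 2 Npy-rich cells in the WT female had horizontal-cell markers, with 31 and 41 Onecut1 UMIs, 35 and 40 Lhx1 UMIs and 280 and 218 Calb1 UMIs. Horizontal cells are the interneurons that feed back onto photoreceptors. These 2 cells held 6 and 5 Npy UMIs among 45418 and 42849 UMIs, or 132 and 117 per 1000000. Deep mixed-cluster cells of the other libraries also held Npy, below the cut of 5 UMIs. Examples are 4 UMIs among 37316 in the NLGF female, 3 among 54084 in the NLGF male and 3 among 50306 in the WT male. The cut thus sets which library is named here, and no difference between genotypes is read from it. The third Npy-rich cell of the mixed cluster, in the WT male, had 6 Npy UMIs among 2552 UMIs, with 3 Gad1 UMIs. The share in amacrine rich cells was 215 to 3576 per 1000000.

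Penk (ENSMUSG00000045573, GRCm38 chromosome 4, 4133531 to 4138819, minus strand) encodes preproenkephalin, the source of the opioid enkephalins. It had 22 and 8 UMIs in NLGF female and male retina, against 14 and 17 in WT female and male retina, and the genotypes overlapped. Rich cells were 1 and 0 in NLGF and 0 and 1 in WT, each with 9 UMIs. In amacrine cells Penk had 6.04 ± 3.92 CPM in NLGF and 4.298 ± 2.998 CPM in WT (SD, n = 2 each), a log2 fold change of 0.30 ± 0.61 (SE).

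Of the 18 Penk-positive amacrine cells, the 4 with 3 or more Penk UMIs held the glycine transporter Slc6a9. It was also found in 409 of all 594 amacrine cells, so it is common in the class. Slc6a9 had 16 and 7 UMIs in the NLGF female cells with 9 and 3 Penk UMIs, and 12 and 10 UMIs in the WT female cells with 4 and 3 Penk UMIs. In 1 NLGF and 1 WT cell of these 4, Slc17a8, the vesicular glutamate transporter VGLUT3, had 13 and 47 UMIs. The one Penk-rich amacrine cell, with 9 Penk UMIs, also held Gad2 but no Gad1. Sub-clusters led by Trhde and by Slc17a8 held 12 and 14 of the 37 amacrine Penk UMIs. The rich WT male cell lay in the mixed cluster, with 11 Slc17a6 and 9 Nefl UMIs and no Gad1, Gad2 or Slc6a9.

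**Figure D3:**
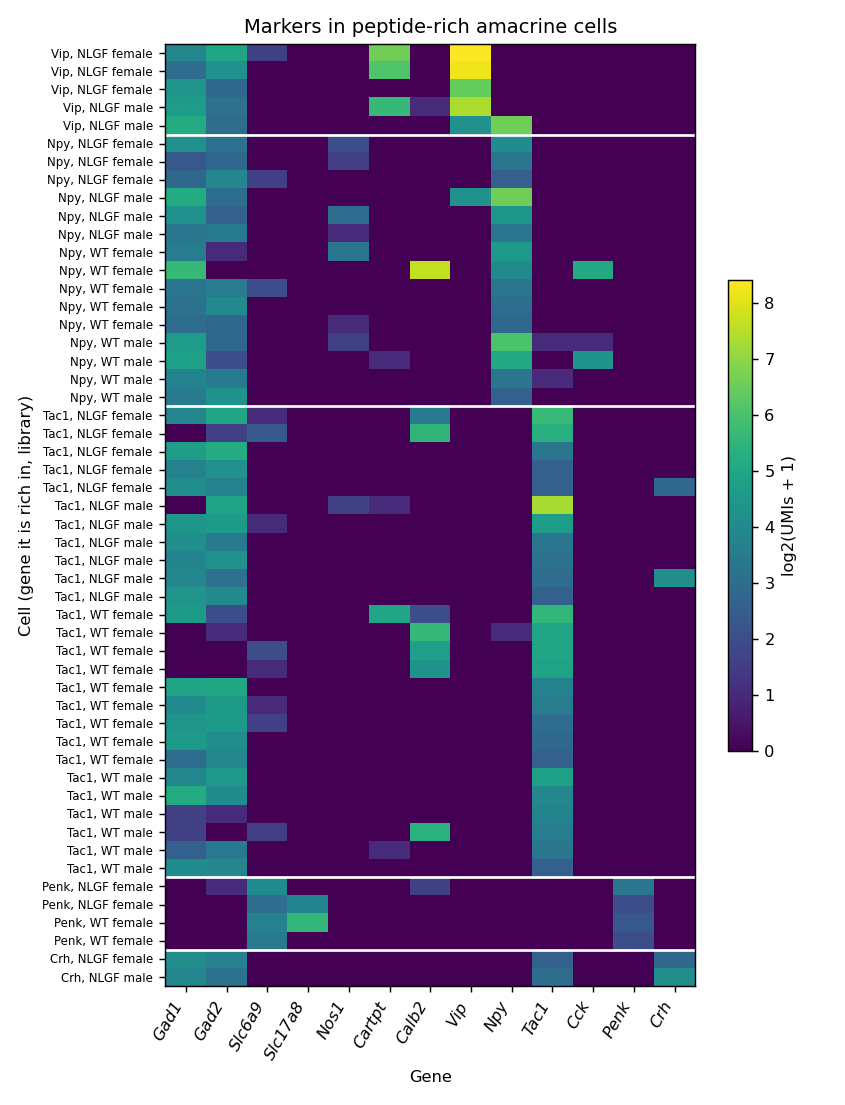
Marker UMIs on a log2(UMIs + 1) scale in amacrine cells rich in Vip, Npy, Tac1 or Crh, and in the 4 amacrine cells with 3 or more Penk UMIs, with one row per cell. Gad1 fills the Vip, Npy and Crh rows, Gad2 fills them but for 1 WT female Npy row, Slc6a9 fills the Penk rows, and the peptides themselves rarely share a cell.

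Cck (ENSMUSG00000032532, GRCm38 chromosome 9, 121489824 to 121495694, minus strand) encodes cholecystokinin. It was carried mainly by cone bipolar cells, the excitatory neurons that pass cone signals inward. NLGF retina held 765 Cck UMIs in the female and 1246 in the male, against 781 in the WT female and 1181 in the WT male, and the genotypes overlapped. Cone bipolar cells held 682 and 1004 of these in NLGF and 603 and 1053 in WT, which is 84.1% of all Cck UMIs. Rich cone bipolar cells numbered 42 and 55 in NLGF and 34 and 58 in WT.

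Within cone bipolar cells, Cck was concentrated in 1 cluster of 224 cells, whose leading genes were Cck itself, Reln and Vsx1. There a Cck UMI was found in 95.7% and 90.9% of NLGF cells and in 91.1% and 94.0% of WT cells (female and male). The median count was 14 and 10.5 UMIs per cell in NLGF and 12 and 14 in WT. A neighbouring cluster led by Slit2 and Neto1 held Cck in fewer cells, 10.7% and 18.0% in NLGF and 5.79% and 9.24% in WT. In the remaining 3 cone bipolar clusters Cck was positive in 0.696% to 2.90% of cells. By their own markers, 98 of the 189 rich cells read as cone bipolar, 72 as rod bipolar, whose list shares bipolar genes, and 19 as rod.

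**Figure D4:**
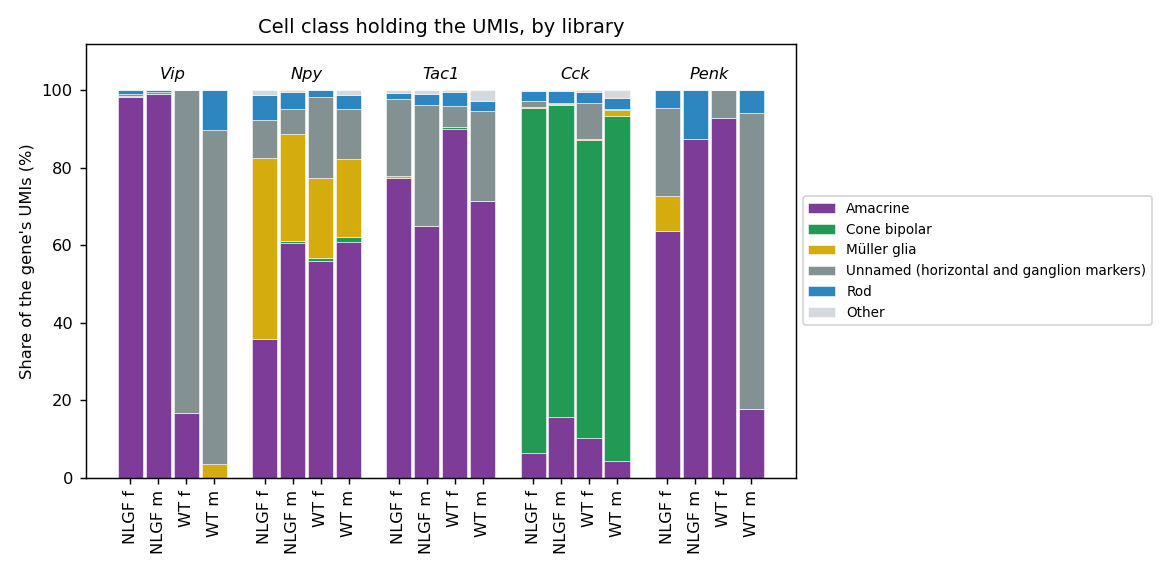
Share of the UMIs of 5 genes in each cell class by library, in percent, with NLGF left of WT for each gene; the dark grey band is the mixed cluster. Amacrine cells hold most Vip in NLGF, most Tac1 in all libraries and 35.9% to 61.0% of Npy, whereas cone bipolar cells hold most Cck.

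The cone bipolar fit gave Cck 308 ± 9.18 CPM in NLGF and 246 ± 67.2 CPM in WT (SD, n = 2 each), a log2 fold change of 0.32 ± 0.12 (SE). In that fit 0% of the 11695 genes passed the threshold with edgeR (768 at an unadjusted p under 0.05, and 5 with DESeq2). Both NLGF libraries, at 302 and 315 CPM, were above both WT libraries, at 199 and 294 CPM, as for 17.7% of the genes tested. The value was 0.33 with sex as a block, 0.30 with no filter on low counts and 0.63 without the WT male. The WT male is close to the NLGF libraries, so the gap is to the WT female.

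Amacrine Cck lay mainly in 2 sub-clusters. By their own markers, 6 of the 18 Cck-rich amacrine cells read as amacrine, 10 as rod, 1 as Müller glia and 1 as rod bipolar. A sub-cluster led by Neurod6, a transcription factor known to mark amacrine cells with little GABA or glycine machinery, held 1 and 50 UMIs in the NLGF female and male and 25 and 29 in the WT female and male. It had 3 and 12 cells in NLGF and 10 and 11 in WT. The Nr4a2 and Cbln2 sub-cluster held 46 and 136 in NLGF and 35 and 22 in WT, its rich cells having 17 to 49 Gad1 UMIs. Amacrine Cck as a whole had 61.2 ± 42.9 CPM in NLGF and 38.02 ± 1.40 CPM in WT (SD, n = 2 each), a log2 fold change of 0.74 ± 0.32 (SE). The NLGF female, at 30.8 CPM, lay below both WT libraries and the NLGF male, at 91.5 CPM, above them. Without the NLGF female the log2 fold change was 1.26, and without the NLGF male it was −0.30.

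Ganglion-marker cells of the mixed cluster also held Cck. The richest cell of the WT female had 67 Cck UMIs among 59991 UMIs, with 50 Slc17a6, 20 Rbpms and 873 Cartpt UMIs. An NLGF female cell with 97318 UMIs held 7 Cck and 7 Tac1 UMIs, with 86 Slc17a6 and 68 Rbpms UMIs.

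**Figure D5:**
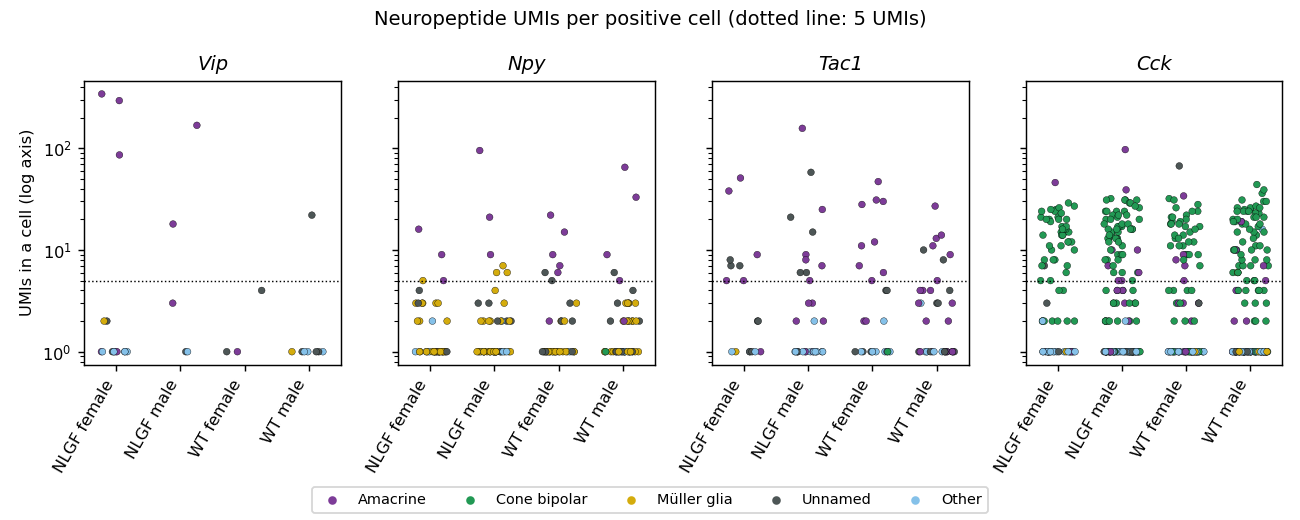
UMIs of Vip, Npy, Tac1 and Cck in each positive cell on a log axis, by library with NLGF left of WT and colour for the cell class; the dotted line marks 5 UMIs. Vip has its cells of 86 or more UMIs in NLGF libraries, Npy shows many Müller cells with few UMIs, and Cck shows a band of cone bipolar cells in every library.

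Sst (ENSMUSG00000004366, GRCm38 chromosome 16, 23889573 to 23890958, minus strand) encodes somatostatin, which in mouse retina is known from sparse GABAergic cells of the inner retina. It had 1 and 2 UMIs in the NLGF female and male, against 0 and 2 in the WT female and male, with 0 UMIs in all 594 amacrine cells. No cell held more than 2 UMIs. A count of 0 rich cells in 300 NLGF and 294 WT amacrine cells has exact 95% upper limits of 1.22% and 1.25% (1.00% and 1.02% by 3 counts). These limits pool the 2 libraries of a genotype and cover counting error only. Sst cells were not detectable here, and no fold is given.

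The Nr4a2 and Cbln2 sub-cluster brought several of these peptides together, for the most part in separate cells. Of its 38 cells, 17 were rich in 1 of the genes or more, and 4 were rich in 2. These 4 were the pair with Tac1 and Crh from NLGF and the pair with Npy and Cck from WT. Vip-rich and Tac1-rich cells did not coincide anywhere: 0 of 6 Vip-rich cells held a Tac1 UMI. Its median of 18879.5 UMIs per cell compares with 11541.5 over all amacrine cells. The part of depth in these counts of rich cells was not tested.

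Genes most like each peptide were ranked by Pearson r of log2(CPM + 10) over the 19 sub-clusters, among 8694 genes; all points share the same libraries, and r is a description. For Vip they were Tac2 (r = 0.89), which encodes neurokinin B, Cbln4 (0.84), a synaptic organiser, and Syt6 (0.83), a synaptotagmin. For Crh they were Cbln4 (0.98), Cdkn1c (0.89), a cell-cycle inhibitor, and Etv1 (0.87), a transcription factor. For Tac1 they were Reln (0.89), the secreted protein reelin, Tac2 (0.84) and Cbln2 (0.74). For Npy they were Ankrd6 (0.78), Chrna6 (0.75), a nicotinic receptor subunit, and Pcdh10 (0.75), a protocadherin. For Cck they were Lbh (0.78), Kcnk3 (0.67), a potassium channel, and Ass1 (0.64), an enzyme of arginine synthesis. For Penk they were Car3 (0.97), a carbonic anhydrase, A930001A20Rik (0.96) and Itm2b (0.86), a membrane protein. With Vip, Crh and part of Tac1 in 1 sub-cluster, that sub-cluster sets their ranking. A high r does not place 2 genes in the same cells. Amacrine cells of the NLGF female held 724 Vip UMIs and 0 Tac2 UMIs, so its 3 Vip-rich cells held no Tac2.

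Other parts of the peptide system did not pass the threshold in amacrine cells. Of 22 further neuropeptide genes, 6 passed the filter on low counts and were tested, with 0 higher and 0 lower. Their log2 fold changes ran from −0.29 to 2.04 with a median of 0.58, beside 0.00 over all 11200 genes. A gene could pass that filter through 1 genotype alone, so no rise of the list is read from these 6. Tac2 had 0 and 162 UMIs in the NLGF female and male against 27 and 7 in the WT female and male. Pomc, the precursor of beta-endorphin and melanocortins, had 12.1 ± 2.01 CPM in NLGF and 6.48 ± 0.0823 CPM in WT (SD, n = 2 each). Pdyn, the precursor of dynorphins, had 7.83 ± 0.502 CPM in NLGF and 4.17 ± 1.79 CPM in WT.

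Of 13 genes for precursor processing, 12 were tested with 0 higher, 0 lower and a median of 0.01. Pcsk2, the prohormone convertase of dense-core vesicles, had 223 and 198 CPM in the NLGF female and male against 265 and 275 CPM in the WT female and male, a log2 fold change of −0.36 ± 0.09 (SE) that did not pass. Its genotypes did not overlap, as for the 16.6% of genes tested in which both NLGF libraries were below both WT libraries. Qpct, which forms the N-terminal pyroglutamate of peptides, had −0.52 ± 0.20, and Pcsk6, a convertase of the secretory pathway, −0.33 ± 0.22.

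Of 16 dense-core vesicle genes, 14 were tested with 0 higher, 0 lower and a median of −0.08. Ptprn, a membrane protein of these vesicles, had 0.30 ± 0.12, whereas the granins Scg2 and Scg3 had −0.22 ± 0.09 and −0.16 ± 0.09. Of 23 receptors for the peptides, 5 were tested with 0 higher, 0 lower and a median of 0.19. The somatostatin receptor Sstr2 had −0.97 ± 0.47, the substance P receptor Tacr1 0.58 ± 0.32 and the VIP receptor Vipr2 0.19 ± 0.26. Of 20 markers of amacrine types, 15 were tested with 0 higher, 0 lower and a median of −0.04, among them Calb2 at −0.37 ± 0.14 and the glycine transporter Slc6a5 at 0.28 ± 0.15. All values of these lists are log2 fold changes of NLGF over WT with their SE unless given in CPM or UMIs.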

How the data were processed

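UMI counts per gene and barcode were deposited by the authors as 1 raw matrix per library. Per the file headers they come from Cell Ranger 6.1.1; the processing notes of the submitters give version 3.1.0, with STAR and mm10. For intronic reads, the handling was not given in the sources used here. No barcode had fewer than 500 UMIs.

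The 7 genes and all gene and marker lists were chosen with earlier results of these data known. Filters of 300 or more genes and a mitochondrial share up to 20% passed 33329 of 35191 barcodes. Scrublet's automatic threshold marked 2 cells, so the top 6% of scores per library were removed (2000 cells). Counts were scaled to 10000 UMIs, then clustered with scanpy 1.11.5 (2000 variable genes, 30 components, 20 neighbours, Leiden resolution of 1) into 20 clusters. Clusters were named by mean marker z-score, unless another list had more markers among the leading genes of the cluster. A minimum z-score of 0.8, set after the data were seen, applied only where the chosen list had no marker among those genes. A neuronal cluster was left unnamed where a leading gene marked only another neuronal class, also a later choice. Names read as amacrine-like and so on. Amacrine cells were sub-clustered at resolution 2 without the 7 genes.

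Counts summed per library were compared with edgeR 4.0.16 (quasi-likelihood, TMM, filterByExpr, genotype only, Benjamini-Hochberg, 0.05), over amacrine cells and all cells, and, added later, cone bipolar cells and Müller glia. DESeq2 1.42.0 was an alternative. The amacrine sums held 1588822 and 2145949 UMIs in NLGF and 2048115 and 1410557 in WT. On simulated amacrine counts, 23.5%, 59.7% and 98.3% of genes changed 1.5, 2 and 4 times were recovered. The changed genes were drawn only from those above a minimum summed count, so these rates do not cover counts as low as those of Penk. Genes carried by single cells were not simulated. Named genes are the 7, the 3 smallest p-values per list where none passed, and the 3 genes most like each peptide. A gene that this rule names is not reported here. Intervals are exact (Clopper-Pearson, 95%); beside a count of 0 the share that 3 counts would give is added. Both cover counting error only. Sex pairs the libraries as 1 female and 1 male per genotype. Leading genes of clusters are named to identify them. Gene IDs of the 7 each had 1 symbol in the files.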

Additional observations from a re-analysis of the deposited data

Results flagged for a closer look

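For several of the genes the female pair and the male pair of libraries moved opposite ways. With 1 library per sex and genotype, none of these differences between the sexes was tested. In amacrine cells the log2 ratio of NLGF to WT for Tac1 was −0.39 in females and 0.43 in males, a difference of 0.82, and for Cck it was −0.34 in females and 1.31 in males, a difference of 1.64. Over all cells Tac1 stood at −0.41 in females and 1.19 in males, a difference of 1.60. Npy over all cells stood at −0.16 in females and 0.13 in males, a difference of 0.29. Penk over all cells stood at 0.76 in females and −1.09 in males, a difference of −1.86. The Tac1 value of the NLGF male includes 1 cell with 157 UMIs, and its Cck value in amacrine cells includes 1 cell with 97 UMIs. The Neurod6 sub-cluster, which holds Cck, had 3 and 12 cells in the NLGF female and male and 10 and 11 in the WT female and male. The part of these cells in the differences was not tested.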

How the results depend on the processing

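The amacrine Vip log2 fold change lay between 7.94 and 11.81 under the 10 alternatives that gave a value. With WT at 1 and 0 UMIs its sign could not turn, so these settings do not check it. The setting without the richest cells gave no value. Over all cells Vip lay between 3.38 and 6.29. Cck in cone bipolar cells lay between 0.07 and 0.63, and Npy in Müller glia between 0.16 and 0.58, with no reversal.

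Other signs turned. Leaving out a library in turn, amacrine values ranged from −1.38 to 0.43 for Npy, −0.29 to 0.31 for Tac1, −0.30 to 1.26 for Cck and −0.48 to 1.37 for Penk. Over all cells they ranged from −0.51 to 0.41 for Npy, −0.16 to 0.90 for Tac1, −0.18 to 0.34 for Cck and −1.01 to 0.67 for Penk. Amacrine Npy was at −1.38 without the NLGF male. Within each sex it was lower in NLGF, at −0.56 in females and −0.50 in males, with 1 library per sex and genotype. With sex as a block it was −0.52. Amacrine Cck was at 1.26 without the NLGF female and 0.73 with no filter on low counts. Without the richest cells, amacrine Tac1 was −0.98 and Cck −0.46, and over all cells Npy was −0.13 and Tac1 −0.035. Penk over all cells was −0.042 with the sexes as a block and −0.14 with doublets kept. The cause was not tested.

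Counts of genes past the threshold moved widely. The amacrine count of 3 became 10 to 56 leaving out a library, 74 with no filter, 46 with the replicate block of sex, 6 with no TMM and 6 without the richest cells. The count of 5 over all cells became 8 to 96 leaving out a library, 67 with DESeq2, 212 with no filter and 0 with the block. The cone bipolar count of 0 became 0 to 51 leaving out a library, 5 with DESeq2, 39 with no filter, 32 with the block and 14 with doublets kept. The Müller count of 111 became 130 to 275 leaving out a library, 40 with DESeq2, 300 with the block and 246 with doublets kept. Leaving out a library leaves 1 library in a genotype, which is then assumed to vary like the other pair. Sex is a label shared by libraries and does not make them the same animal.

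Removing the richest cells took Vip out of the amacrine fit, and Crh and Sst were under the filter of the edgeR fits with 4 libraries. Crh could be fitted with DESeq2, with no filter and in some fits with a library left out. With WT at 0 or 1 UMIs each such value was bound to be higher in NLGF. A fitted value of this kind is no fold and is not given. Clusters made without the 7 genes give the same sums over all cells. Giving the mixed cluster the name of its best marker list would change its name to horizontal and move no count. The NLGF minus WT number of rich cells was 0 at 3 or more UMIs for Npy, −7 at 3 and −4 at 10 or more for Tac1, −1 at 3 for Penk and 1 at 10 for Crh. No Crh UMI was drawn at 1000 UMIs per cell. Of 594 amacrine cells, 62 were rich in any of the genes, and this number limits the amacrine comparisons.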

Other observations

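Beyond the 7 genes, the cocaine- and amphetamine-regulated transcript Cartpt accompanied several of the richest cells. It had 95, 67 and 49 UMIs in 3 Vip-rich NLGF amacrine cells, 873 UMIs in the WT female cell with 67 Cck UMIs, and 32 UMIs in the WT female cell with 4 Vip UMIs among 549 UMIs. A further NLGF male amacrine cell held 547 Cartpt and 3 Vip UMIs and lay in a sub-cluster led by Cartpt and Kit. Of all 594 amacrine cells, 160 held a Cartpt UMI.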
